A study of Mus musculus with 12 samples.

Results

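Sterol and fatty acid synthesis was described here through 34 genes chosen by name from a list and found in the deposited expression matrix by their gene symbols. All 34 were among the 23022 listed genes, and all 34 were among the 11663 genes that reached 1 TPM (a transcript's share of all transcripts in a library, scaled for transcript length) in at least 3 libraries. They comprised 6 genes of the mevalonate pathway, 9 of the later sterol pathway, 5 regulators of the SREBP (sterol regulatory element-binding protein) system, 2 genes of sterol traffic, *Stard4* and *Mylip*, and 12 genes of fatty acid synthesis, desaturation, activation and phosphatidate conversion. The libraries were poly(A)-selected, unstranded RNA-seq of B16-F10, a mouse melanoma line from the C57BL/6 strain. Cells carried a control construct (called a no template control in the labels, NTC) or a paired guide RNA that edits both *Mbnl1* and *Mbnl2*, which encode muscleblind-like RNA-binding proteins (double knockout, DKO), and each genotype was left unstimulated or was treated with IFNγ, with 3 libraries in each of the 4 groups. Every group expressed Cas9, since all cells descended from 1 Cas9 clone chosen for its editing rate. The edited cells were transduced and selected as a population in which western blots still showed some protein. The sample labels give neither the dose of IFNγ nor the duration of treatment, and they do not say whether the replicates were separate cultures, so the p-values measure only the spread between these libraries.

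Cells make cholesterol from acetyl-CoA through mevalonate and the isoprenoid farnesyl pyrophosphate, which also serves protein prenylation, then through squalene and lanosterol. Fatty acids start from the same acetyl-CoA through acetyl-CoA carboxylase and fatty acid synthase, followed by elongation and desaturation. Both routes are controlled by SREBP transcription factors, which the escort protein SCAP carries from the endoplasmic reticulum to the Golgi for cleavage when sterols are low and which INSIG proteins hold back when sterols are high; SREBP2 (*Srebf2*) favours sterol genes and SREBP1 (*Srebf1*) favours fatty acid genes.

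The largest contrast among the members lay between the genotypes. *Sqle* and *Fdps*, 2 enzymes on the way to sterols, were lower in DKO cells with and without IFNγ, while *Elovl6*, *Fasn*, *Scd2*, *Acly* and *Lpin1* on the fatty acid side were higher. Without IFNγ the calls of *Fasn*, *Scd2* and *Acly* were lost when single libraries were left out. Other calls went against this division. The sterol gene *Dhcr7* was higher in both comparisons and *Ebp* without IFNγ. On the fatty acid side *Scd1* was lower without IFNγ and *Acss2* with it. IFNγ raised 6 mevalonate and sterol members by about the same amount in NTC cells, with log2 differences of 0.24 to 0.27. No member passed the test for IFNγ in DKO cells, and for no member did the IFNγ response itself differ between the genotypes by the test. The 34 genes spanned a wide range of levels. *Scd2*, a stearoyl-CoA desaturase, was the most abundant member at 605.3 ± 36.8 TPM in untreated NTC cells (mean ± SD, n = 3), followed by *Fdps* at 377.3 ± 11.7, and *Acacb*, the mitochondria-associated acetyl-CoA carboxylase, was the lowest at 2.04 ± 0.0975.

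**Figure D1:**
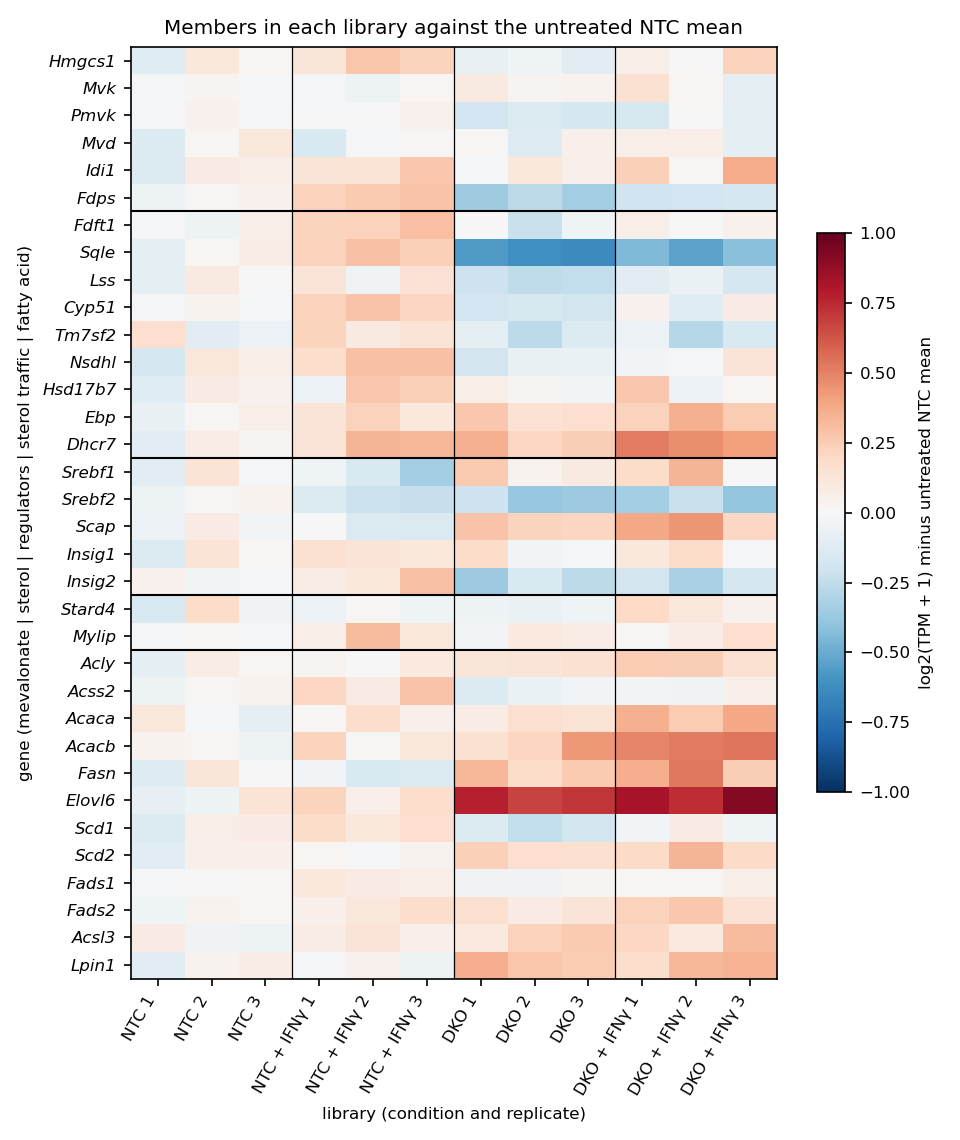
Each of the 34 members (vertical axis, grouped by role) in each of the 12 libraries (horizontal axis), coloured by log2(TPM + 1) minus the mean of the untreated NTC libraries, with red for higher and blue for lower. *Sqle* and *Fdps* are blue in all 6 DKO libraries and *Elovl6* is red in all 6.

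Promoter sequence is shown for some members whose genotype differences are described further on. It is also shown for *Hmgcs1*, which passed in no comparison as deposited. RefSeq windows of 300 bases, 250 before and 50 after each annotated transcription start (build GRCm38.p6), were at hand for 27 of the 34 members. Each was searched on both strands for the sterol regulatory element TCACNCCAC, the CCAAT box, which binds the SREBP partner NF-Y and reads as ATTGG on the other strand, and the E-box CACGTG. Of the 12 mevalonate and sterol members with a window, 12 held CCAAT in at least 1 window, and 12 of their 15 windows did (80%). Among the fatty acid members 5 of 9 windows held it (55.6%), against 12289 of the 32851 windows of all genes (37.4%) and 38.3% of windows of genes past the filter on low values. The windows without it were those of *Elovl6*, *Lpin1*, *Acaca* and *Fads2*, the first 3 of which were higher in DKO cells in at least 1 comparison. The sterol regulatory element in these letters occurred in 1 member, *Hmgcs1*, or 2.86% of member windows against 1.24% of all windows, and CACGTG occurred in 14.3% against 7.15% of all windows. Among windows of genes past the filter on low values these shares were 1.16% and 10%. The stretches printed here end before the start site and lie in no gene of the GENCODE vM21 annotation. They show the member with the sterol regulatory element (*Hmgcs1*), genes lower in DKO cells (*Lss*, *Pmvk*, *Srebf2*) and a gene higher in them (*Fasn*), with CCAAT or ATTGG and the sterol regulatory element in capitals.
*Hmgcs1*, chr13:119690101-119690330, plus strand: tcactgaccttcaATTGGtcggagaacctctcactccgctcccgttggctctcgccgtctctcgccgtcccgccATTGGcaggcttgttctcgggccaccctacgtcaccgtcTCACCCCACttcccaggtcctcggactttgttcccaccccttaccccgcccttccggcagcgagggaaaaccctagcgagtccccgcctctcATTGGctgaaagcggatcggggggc
*Lss*, chr10:76531523-76531567, plus strand: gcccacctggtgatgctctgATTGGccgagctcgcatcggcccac
*Pmvk*, chr3:89454385-89454429, plus strand: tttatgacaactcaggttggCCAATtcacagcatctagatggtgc
*Srebf2*, chr15:82147114-82147158, plus strand: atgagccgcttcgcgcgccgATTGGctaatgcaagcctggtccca
*Fasn*, chr11:120824582-120824657, minus strand: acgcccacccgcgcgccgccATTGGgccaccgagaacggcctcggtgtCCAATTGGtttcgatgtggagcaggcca

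Whole-series values that touch these genes were few. *Mbnl1* and *Mbnl2* were lower in DKO cells, by log2 differences of -0.41 and -0.20 without IFNγ and -0.47 and -0.23 with it. *Irf1*, *B2m* and *Gbp2* rose with IFNγ in both genotypes. The rise of *B2m* was smaller in DKO cells (difference in response -0.63, adjusted p = 0.0256). For *Irf1* (-0.20, adjusted p = 0.451) and *Gbp2* (-0.28, adjusted p = 0.496) the difference in response did not pass. All 7 melanocyte markers examined (*Mitf*, *Tyr*, *Tyrp1*, *Dct*, *Pmel*, *Mlana*, *Sox10*) were expressed. Their summed level was 16647 to 17553 TPM in untreated and 18050 to 18642 TPM in treated NTC libraries, against 11124 to 11452 and 12319 to 12414 TPM in DKO libraries. In untreated DKO cells 7 of 7 were lower and in treated DKO cells 6 of 7, against 19.4% and 23.9% of all tested genes. In bulk libraries fewer cells of a type and less RNA per cell cannot be told apart, and the part of this shift in the member differences was not tested. Of 8 markers of immune, endothelial and epithelial cells 7 were listed and none reached the filter, with sums of 0 to 0.983 TPM. The listed genes summed to 844185 to 874612 TPM in NTC libraries and 805782 to 827191 TPM in DKO libraries.

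The response of NTC cells to IFNγ addressed what the cytokine does to these genes where *Mbnl* is intact. *Fdps*, *Fdft1*, *Sqle*, *Cyp51*, *Nsdhl* and *Dhcr7* rose and *Srebf2* fell, so 7 of 34 members (20.6%) passed an adjusted p of 0.05 against 12.1% of all tested genes. Of all tested genes 7.31% rose and 4.78% fell. Among the 34 members, all 6 that rose came from the 15 mevalonate and sterol members, with none of the 12 fatty acid members past the test. The median log2 difference was 0.18 for mevalonate and sterol members, 0.08 for fatty acid members and 0.02 for all tested genes. A positive difference was seen in 26 of 34 members, but the share of all tested genes with one was not counted. With every library scaled to the same listed total, the median of all tested genes was -0.01.

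*Fdps* encodes farnesyl pyrophosphate synthase, the branch point to sterols and prenyl groups. It read 364.6, 379.7 and 387.6 TPM in untreated NTC libraries, 442.5, 453.2 and 460.5 with IFNγ, 294.9, 313.3 and 295.4 in untreated DKO libraries and 328.1, 330.2 and 335.6 in treated DKO libraries. The 4 groups did not overlap, with treated NTC libraries highest and untreated DKO libraries lowest. IFNγ raised it in NTC cells to 120% of the untreated mean (log2 difference 0.26, SE 0.0372, adjusted p = 0.00121). The DKO groups lay 0.14 apart (adjusted p = 0.167). *Sqle* encodes squalene epoxidase, the first oxygen-requiring step and a rate-limiting enzyme of the sterol branch. Its values were 103.5, 111.6 and 116.0 TPM in untreated NTC, 129.3, 135.3 and 130.5 in treated NTC, 74, 71.8 and 70.5 in untreated DKO and 80.8, 75.9 and 82.5 TPM in treated DKO libraries. Again no group overlapped another, and every DKO library lay below every NTC library. With IFNγ *Sqle* rose in NTC cells by 0.25 on the log2 scale (SE 0.0487, adjusted p = 0.00978), while its difference among DKO cells, 0.14, did not pass (adjusted p = 0.336).

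*Cyp51*, lanosterol 14-alpha-demethylase, read 79.2, 82.3 and 79.6 TPM in untreated NTC libraries and 94.4, 98.3 and 93.4 with IFNγ, a difference of 0.24 on the log2 scale (SE 0.051, adjusted p = 0.0139). In DKO cells it read 70.3, 71.7 and 70.6 TPM untreated and 82.6, 73.6 and 85.3 with IFNγ, and treated replicate 2 was the low library. Without that library the difference in DKO cells was 0.24 (adjusted p = 0.0128), and with all libraries it was 0.18 (adjusted p = 0.201). *Dhcr7*, the 7-dehydrocholesterol reductase that makes cholesterol in the last step of one route, read 50.8, 57.7 and 55.9 TPM in untreated and 59.8, 69.3 and 69.2 in treated NTC libraries. Its untreated DKO values were 70.3, 63.5 and 65.2 TPM and its treated DKO values 78.2, 76 and 73.2. *Dhcr7* was the sterol gene with the largest IFNγ difference in NTC cells (0.27, SE 0.0656, adjusted p = 0.0242), and unlike *Sqle* it was highest in treated DKO cells.

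*Nsdhl*, which removes methyl groups from sterol intermediates, read 31.2, 38.5 and 37 TPM in untreated NTC, 40.2, 43.6 and 43.7 in treated NTC, 31.1, 33.5 and 33.8 in untreated DKO and 34.7, 34.9 and 38.7 TPM in treated DKO libraries. The NTC groups did not overlap, and untreated replicate 1 was the low library (log2 difference 0.25, SE 0.0747, adjusted p = 0.0441). *Fdft1*, squalene synthase, ranged from 43.2 to 62.6 TPM over all libraries and had a difference of 0.25 (SE 0.0577, adjusted p = 0.0184). Part of its locus overlaps *Ctsb* on the opposite strand, which reached 330.5 TPM, and in unstranded libraries reads from the overlap cannot be told apart. Calls in this comparison rested partly on single libraries: *Fdps* and *Sqle* passed under all 20 alternatives tried. The other calls were lost at adjusted p of 0.0551 to 0.074 for *Fdft1* (without untreated NTC replicate 2 or treated NTC replicate 2 or 3) and 0.0529 and 0.0564 for *Cyp51* (without untreated replicate 3 or treated replicate 2). They were lost at 0.0613 to 0.0943 for *Dhcr7* (each time without 1 NTC library: untreated replicate 1, untreated replicate 3, treated replicate 2 or treated replicate 3) and at 0.0513 to 0.131 for *Nsdhl* (without any untreated NTC library, treated NTC replicate 2 or 3, untreated DKO replicate 2 or 3 or treated DKO replicate 1). The number of members that rose was 2 without treated NTC replicate 2 and 3 without treated NTC replicate 3 or untreated NTC replicate 3. The loss was not particular to the members. In the same order, calls over all tested genes were 328, 317 and 351, in place of 1411.

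In DKO cells 0 of 34 members passed the limma test for IFNγ, where 0.78% of all genes passed. At an unadjusted p under 0.05 there were 9 members and 1119 genes in all. The median log2 difference of mevalonate and sterol members was 0.12 and that of fatty acid members 0.09, against 0.01 for all tested genes. A positive difference was seen in 30 of 34 members, again without a count over all tested genes. The largest differences were those of *Acacb* (0.25, adjusted p = 0.431) and *Acaca* (0.21, adjusted p = 0.279), the acetyl-CoA carboxylases. A direct test of whether the response differed between the genotypes called 0 members, against 0.0343% of all genes, with 3 members and 1340 genes at an unadjusted p under 0.05. The differences in response ran from -0.15 (*Tm7sf2*, adjusted p = 0.616) to 0.23 (*Srebf1*, adjusted p = 0.519). For *Fdps* the response was smaller in DKO cells by -0.12 (SE 0.0526, adjusted p = 0.42) and for *Sqle* by -0.11 (SE 0.0689, adjusted p = 0.525), so neither gene passed the test of an attenuated response.

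**Figure D2:**
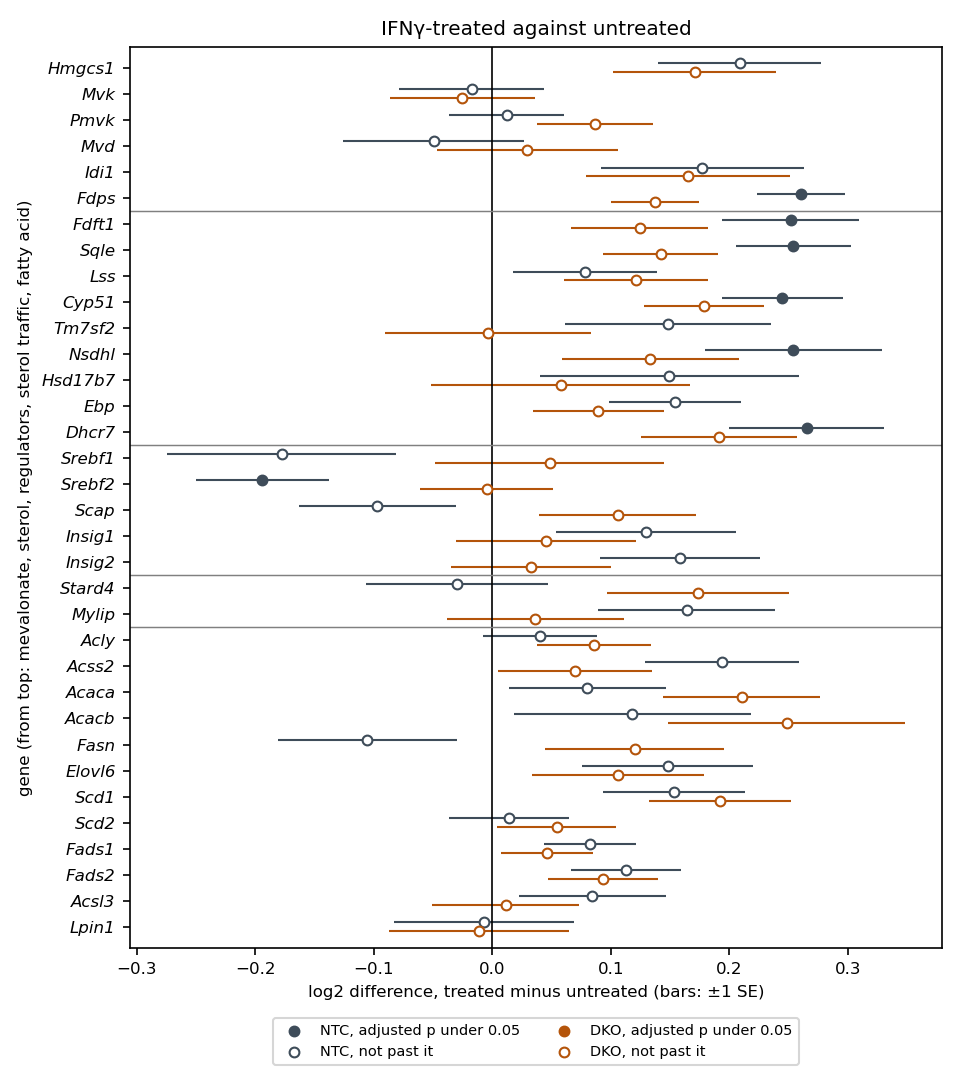
Log2 difference between IFNγ-treated and untreated cells (horizontal axis, bars ±1 SE) for each of the 34 members (vertical axis), in NTC cells (dark) and DKO cells (orange), with filled points for an adjusted p under 0.05. The 7 filled points are all NTC points, 6 of mevalonate and sterol genes to the right of 0 and *Srebf2* to its left.

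The comparison of DKO with NTC cells addressed what the edit did to the members at rest and under IFNγ. Both comparisons called many genes in general. Without IFNγ, 17 of 34 members (50%) passed against 36.4% of all tested genes, 9 of them higher (17% of all genes were higher) and 8 lower (19.4% of all genes). With IFNγ, 19 of 34 (55.9%) passed against 43.3%, 10 of them higher (19.5% of all genes) and 9 lower (23.9%). Among the 34 members the branches divided. Of 15 mevalonate and sterol members 2 were higher and 5 lower without IFNγ, and 1 was higher and 7 lower with it. Of 12 fatty acid members 6 were higher and 1 lower without IFNγ, and 7 were higher and 1 lower with it. The median log2 difference was -0.09 and -0.11 for mevalonate and sterol members and 0.16 and 0.20 for fatty acid members, against -0.01 for all tested genes in both comparisons. With every library scaled to the same listed total, which moves the median of all genes to 0.04 and 0.07, the members split into 12 higher and 6 lower (66.7% of calls higher) without IFNγ and 14 higher and 5 lower (73.7%) with it, against 52.9% and 52.6% as deposited. Of all called genes 60.7% and 65.3% were higher under that scaling.

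**Figure D3:**
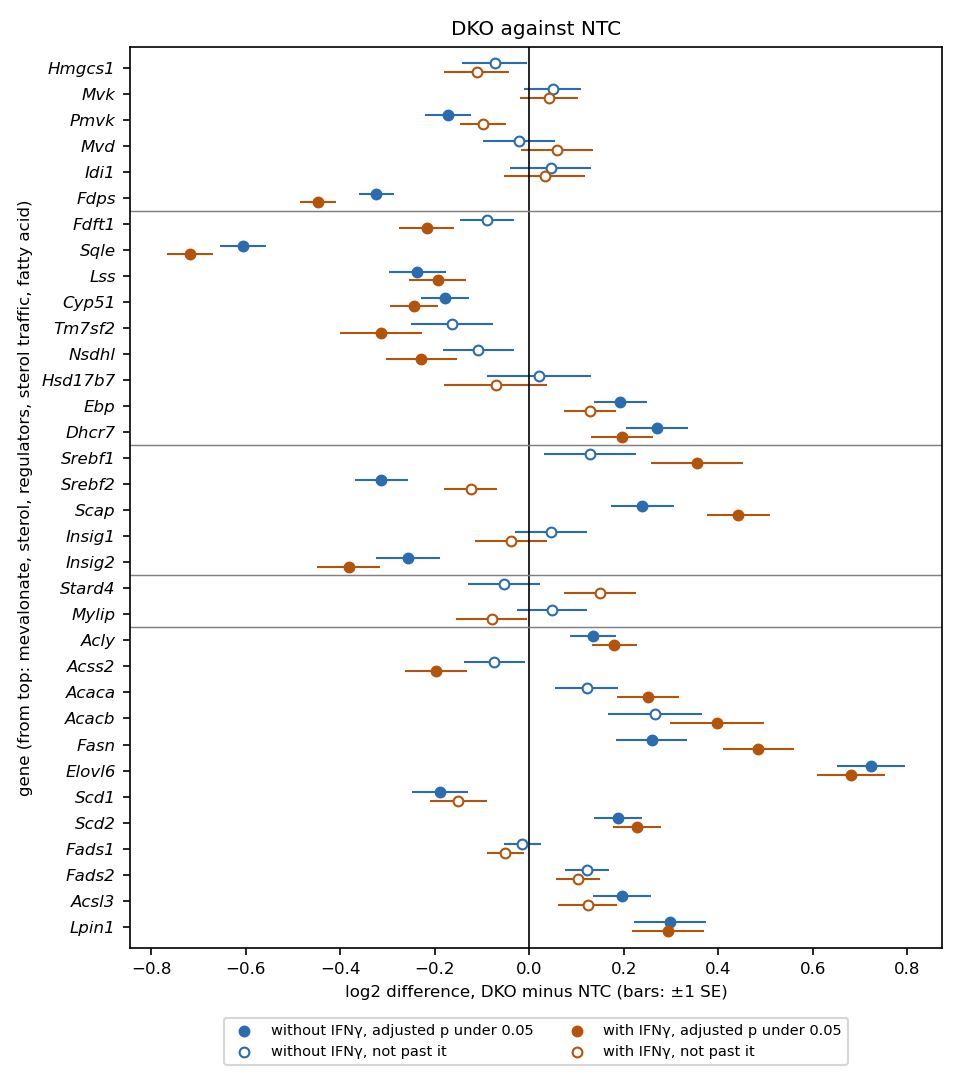
Log2 difference of DKO minus NTC cells (horizontal axis, bars ±1 SE) for the 34 members (vertical axis) without IFNγ (blue) and with IFNγ (orange), with filled points for an adjusted p under 0.05. *Sqle* and *Fdps* lie farthest to the left in both comparisons and *Elovl6* farthest to the right.

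On the sterol side *Sqle* had the largest difference. Its mean in DKO cells was 65.3% of NTC without IFNγ (log2 difference -0.61, SE 0.0487, adjusted p = 1.02e-06). Under IFNγ it was 60.5% (-0.72, adjusted p = 2.06e-07). *Fdps* stood at 79.8% and 73.3% of NTC, with differences of -0.32 (adjusted p = 2.02e-05) and -0.45 (adjusted p = 1.2e-06). *Cyp51*, with the values given above, was lower by -0.18 (adjusted p = 0.0144) and -0.24 (adjusted p = 0.00181). *Lss*, lanosterol synthase, which closes the sterol rings and whose promoter stretch is printed above, read 29.4, 33.4 and 31.5 TPM in untreated NTC, 34.4, 30.6 and 34.7 in treated NTC, 27, 26.1 and 26.3 in untreated DKO and 29, 29.9 and 27.8 TPM in treated DKO libraries. No DKO library reached the NTC libraries of the same treatment (-0.24, SE 0.0608, adjusted p = 0.00803, and -0.19, adjusted p = 0.0199).

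*Pmvk*, phosphomevalonate kinase, read 38.3, 40.1 and 38.3 TPM in untreated NTC, 38.7, 38.9 and 40.1 in treated NTC, 33.9, 35 and 34.2 in untreated DKO and 34.6, 38.8 and 36.4 TPM in treated DKO libraries. It was lower without IFNγ (-0.17, SE 0.0488, adjusted p = 0.0135), and with IFNγ the groups met at DKO replicate 2 (-0.10, adjusted p = 0.12). *Tm7sf2*, a sterol C14 reductase, read 12, 9.61 and 10.1 TPM in untreated NTC, 12.4, 11.2 and 11.6 in treated NTC, 9.8, 8.62 and 9.45 in untreated DKO and 10, 8.43 and 9.36 TPM in treated DKO libraries. Its groups overlapped without IFNγ (-0.16, adjusted p = 0.163) and were apart with it (-0.31, SE 0.0868, adjusted p = 0.0102), and part of its locus is shared with *Vps51* on the same strand. *Fdft1* (-0.22, adjusted p = 0.00818) and *Nsdhl* (-0.23, adjusted p = 0.0244) were lower with IFNγ, where they did not pass without it (-0.09 and -0.11).

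The last enzymes of the branch went the other way. *Dhcr7* was higher in DKO cells by 0.27 without IFNγ (SE 0.0656, adjusted p = 0.00565), and under the cytokine by 0.20 (adjusted p = 0.0265). *Ebp*, the sterol isomerase, read 42.5, 45.4 and 46.7 TPM in untreated NTC, 49.2, 52.7 and 48.2 in treated NTC, 54.1, 49.6 and 50.5 in untreated DKO and 52.9, 57.6 and 53.8 TPM in treated DKO libraries. Its DKO libraries all lay above the NTC libraries of the same treatment, with differences of 0.19 (SE 0.0554, adjusted p = 0.0151) and 0.13 (adjusted p = 0.0788). *Hmgcs1*, the synthase that feeds the pathway and the member with the sterol regulatory element printed above, ranged from 50.1 to 66.6 TPM and did not pass in any comparison, nor did the kinase *Mvk* (19.2 to 23.1 TPM), the decarboxylase *Mvd* (22.5 to 27.2), the isomerase *Idi1* (25.1 to 36.4) or *Hsd17b7* (4.19 to 5.82), a sterol ketoreductase. The sterol carrier *Stard4* (14.3 to 18.5 TPM) and *Mylip* (9.58 to 12.4), a ubiquitin ligase of lipoprotein receptors, did not pass either as deposited. *Sqle*, *Fdps* and, without IFNγ, *Lss* and *Dhcr7* passed under all 20 alternatives. The calls of *Pmvk* (adjusted p = 0.0552) and *Cyp51* (0.0525) without IFNγ were lost when untreated NTC replicate 2 was left out, which left 3 lower mevalonate and sterol members in place of 5 and 5 lower members in place of 8, and that of *Ebp* when untreated NTC replicate 1 (0.0693) or untreated DKO replicate 1 (0.0698) was. With IFNγ, *Lss* was lost without treated NTC replicate 1 or 3 or treated DKO replicate 3 (0.0608 to 0.0796), *Dhcr7* without treated NTC replicate 1 or treated DKO replicate 1 or 2 (0.0585 to 0.118) and *Nsdhl* without treated NTC replicate 2 or 3 or treated DKO replicate 1 or 2 (0.0744 to 0.084).

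**Figure D4:**
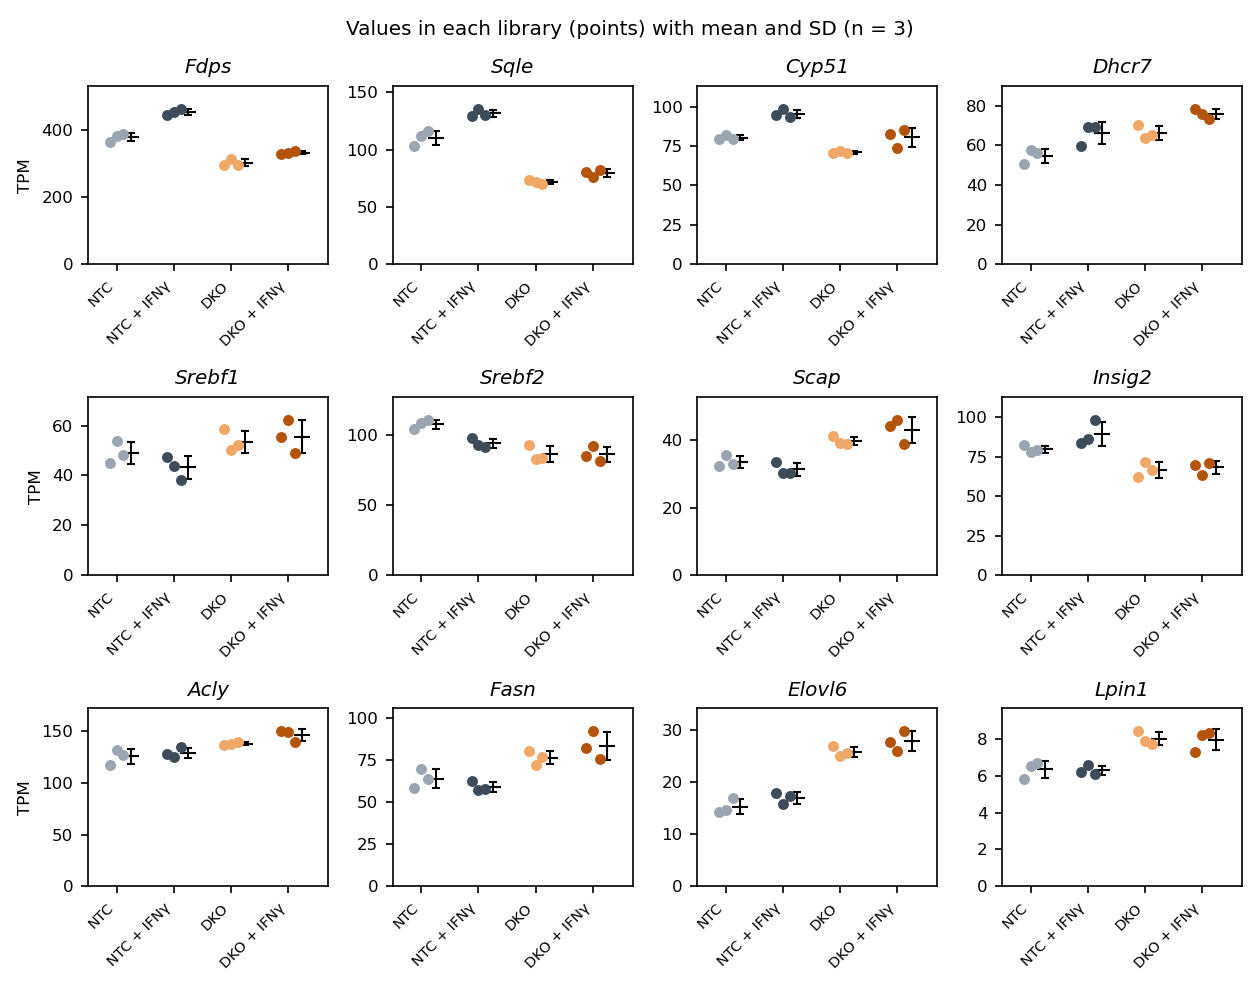
TPM (vertical axes, each from 0) of 12 members in the 4 groups, with a point for each library and the mean ± SD of 3 libraries beside the points. *Sqle* and *Fdps* are lower and *Elovl6*, *Fasn* and *Lpin1* higher in DKO than in NTC libraries of the same treatment.

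Of the 5 regulators 1 was higher and 2 were lower in DKO cells without IFNγ, and 2 were higher and 1 was lower with it, beside the 36.4% and 43.3% of all tested genes called in these comparisons. *Srebf2*, the sterol-side factor, read 104.3, 108.5 and 110.8 TPM in untreated NTC, 98, 92.9 and 91.6 in treated NTC, 93.4, 82.9 and 83.8 in untreated DKO and 85.2, 92.1 and 81.9 TPM in treated DKO libraries. Untreated NTC libraries were above all others. *Srebf2* fell with IFNγ in NTC cells (-0.19, SE 0.0561, adjusted p = 0.042) and was lower in untreated DKO cells (-0.31, adjusted p = 0.000732), and with IFNγ the genotypes overlapped (-0.12, adjusted p = 0.0908). The IFNγ call was lost without untreated NTC replicate 1, 2 or 3, treated NTC replicate 2 or 3, untreated DKO replicate 3 or treated DKO replicate 1 (adjusted p of 0.0512 to 0.131). With the trend on GC content and length removed, the IFNγ difference was -0.04 (adjusted p = 0.509) and the genotype difference with IFNγ was -0.31 (adjusted p = 1.19e-05).

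*Srebf1*, the fatty acid side factor, read 44.9, 53.6 and 48.2 TPM in untreated NTC, 47.4, 43.8 and 38.3 in treated NTC, 58.5, 50 and 52.1 in untreated DKO and 55.5, 62.1 and 49 TPM in treated DKO libraries. The genotypes overlapped without IFNγ (0.13, adjusted p = 0.327) and were apart with it (0.35, SE 0.0967, adjusted p = 0.00962, with the GC and length trend removed 0.17, which still passed). The ratio of *Srebf1* to *Srebf2* in TPM, which scaling between libraries cannot change, was 0.419 to 0.494 in the NTC libraries and 0.597 to 0.674 in the DKO libraries, with no overlap. *Scap*, the SREBP escort, read 32.3, 35.7 and 32.9 TPM in untreated NTC, 33.5, 30.4 and 30.3 in treated NTC, 41.2, 39.3 and 39.1 in untreated DKO and 44.3, 46 and 38.9 TPM in treated DKO libraries. Every DKO library was above every NTC library (0.24, SE 0.0662, adjusted p = 0.0123 without IFNγ, and 0.44, adjusted p = 0.000159 with it), and omitting untreated NTC replicate 1 ended the call without IFNγ (adjusted p = 0.0502). With the GC and length trend removed the difference of *Scap* with IFNγ was 0.23 and still passed.

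The INSIG genes, whose products retain SCAP in the endoplasmic reticulum, differed from each other. *Insig2* read 82.3, 78.3 and 79.1 TPM in untreated NTC, 84, 86.2 and 98.2 in treated NTC, 62.1, 71.8 and 66.6 in untreated DKO and 70.1, 63.7 and 71.2 TPM in treated DKO libraries. Every DKO library lay below every NTC library (-0.26, SE 0.0673, adjusted p = 0.00897 without IFNγ, and -0.38, adjusted p = 0.000545 with it). *Insig1*, itself a classical SREBP target, read 54.3, 66.2 and 60.6 TPM in untreated NTC, 67, 65.9 and 64.7 in treated NTC, 68.4, 59.1 and 59.2 in untreated DKO and 64.8, 68.4 and 59.3 TPM in treated DKO libraries. Its groups overlapped throughout, with log2 differences of 0.13 and 0.05 for IFNγ in NTC and DKO cells and 0.05 and -0.04 for the genotype (adjusted p of 0.257 to 0.903).

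On the fatty acid side *Elovl6*, which elongates palmitate to stearate, had the largest difference of any member without IFNγ, and the largest after *Sqle* with it. It read 14.3, 14.6 and 16.9 TPM in untreated NTC, 17.9, 15.8 and 17.4 in treated NTC, 26.9, 25 and 25.6 in untreated DKO and 27.8, 26.1 and 29.8 TPM in treated DKO libraries. The lowest DKO library was well above the highest NTC library, and DKO means were 169% and 164% of NTC (0.72, SE 0.0725, adjusted p = 6.71e-06, and 0.68, adjusted p = 9.29e-06). *Fasn*, fatty acid synthase, read 58.2, 69.3 and 63.6 TPM in untreated NTC, 62.3, 57 and 57.7 in treated NTC, 80.3, 72.2 and 76.4 in untreated DKO and 82, 91.9 and 75.7 TPM in treated DKO libraries. It was higher in DKO cells without overlap, by 0.26 in untreated cells (SE 0.0755, adjusted p = 0.0161) and by 0.48 in treated cells (adjusted p = 0.000218). With the GC and length trend removed the difference in treated cells was 0.29 and still passed.

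*Lpin1*, a phosphatidate phosphatase on the way to triglycerides, read 5.79, 6.51 and 6.69 TPM in untreated NTC, 6.22, 6.55 and 6.08 in treated NTC, 8.4, 7.87 and 7.72 in untreated DKO and 7.29, 8.21 and 8.31 TPM in treated DKO libraries. Every DKO library was above every NTC library (0.30, SE 0.0758, adjusted p = 0.00766, and 0.29, adjusted p = 0.00709). *Acacb* read 2.11, 2.07 and 1.93 TPM in untreated NTC, 2.56, 2.06 and 2.29 in treated NTC, 2.37, 2.52 and 3.11 in untreated DKO and 3.26, 3.36 and 3.39 TPM in treated DKO libraries. It was higher with IFNγ (0.40, SE 0.1, adjusted p = 0.00622) and did not pass without it (0.27, adjusted p = 0.0525). At 2 to 3 TPM the added 1 TPM understates the change, and treated DKO cells stood at 145% of the NTC mean. With the GC and length trend removed the difference with IFNγ was 0.24 (adjusted p = 0.0783).

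The remaining calls on this side were smaller. *Scd2* (562.7 to 763.7 TPM) was higher by 0.19 (adjusted p = 0.0104) and 0.23 (adjusted p = 0.00268) and *Acly* (117.5 to 149.6 TPM), the ATP citrate lyase that supplies cytosolic acetyl-CoA, by 0.13 (adjusted p = 0.0421) and 0.18 (adjusted p = 0.0084). *Acsl3* (67.1 to 86.9 TPM), which activates fatty acids, was higher without IFNγ (0.20, adjusted p = 0.024) and *Acaca* (18.5 to 26.2 TPM), the cytosolic acetyl-CoA carboxylase, with it (0.25, adjusted p = 0.00796). Against them *Scd1*, the other abundant stearoyl-CoA desaturase, read 61, 69.9 and 71.1 TPM in untreated NTC, 76.7, 72.2 and 75.7 in treated NTC, 61.2, 56.4 and 59 in untreated DKO and 65.7, 71.1 and 65.4 TPM in treated DKO libraries. *Scd1* was lower without IFNγ (-0.19, SE 0.0599, adjusted p = 0.0245) although untreated NTC replicate 1 lay within the DKO values, and with IFNγ the groups were apart but the test was not passed (-0.15, adjusted p = 0.0577). *Acss2*, an acetyl-CoA synthetase, read 11.7, 12.3 and 12.4 TPM in untreated NTC, 14.2, 12.9 and 15.1 in treated NTC, 11, 11.6 and 11.9 in untreated DKO and 11.9, 11.8 and 12.6 TPM in treated DKO libraries. It was lower with IFNγ (-0.20, SE 0.0651, adjusted p = 0.0253), with no overlap, and it shares its locus with *Gss* (up to 25.1 TPM) and *Ggt7* (up to 52.6 TPM) on the opposite strand. The desaturases *Fads1* (56.3 to 62.2 TPM) and *Fads2* (86.4 to 107.8 TPM) passed in no comparison as deposited.

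*Elovl6* and *Lpin1* passed both genotype comparisons under all 20 alternatives, and *Fasn*, *Scd2*, *Acly* and *Acaca* did so with IFNγ. Without IFNγ, leaving out untreated NTC replicate 1 ended the calls of *Fasn* (adjusted p = 0.0781), *Scd2* (0.0501) and *Acly* (0.182) and left 4 members higher in place of 9, 3 of them fatty acid members. Of all tested genes the same omission left 1599 higher in place of 1982. In untreated NTC replicate 1 the median over members, against the mean of the untreated NTC libraries, was -0.09 for mevalonate and sterol and -0.07 for fatty acid genes. *Fasn* was also lost without untreated DKO replicate 1 (0.0652). *Acly* was also lost without any of untreated NTC replicate 3, treated NTC replicate 1, the 3 untreated DKO replicates or treated DKO replicate 1 (0.0504 to 0.112), *Acsl3* without replicate 2 or 3 of either untreated group (0.0735 to 0.0963) and *Scd1* without the same 4 libraries (0.0576 to 0.107). *Acss2* with IFNγ was lost without replicate 1 or 3 of treated NTC or replicate 1 or 2 of treated DKO cells (0.0615 to 0.11).

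Leaving out 1 library also added calls to members described as not passing. In NTC cells with IFNγ this was so for *Hmgcs1*, without treated NTC replicate 1 or treated DKO replicate 2 or 3 (0.21 to 0.25, adjusted p of 0.0344 to 0.0458). Between the untreated genotypes *Nsdhl* passed without untreated NTC replicate 1 (-0.20, adjusted p = 0.0382), *Acacb* without untreated DKO replicate 1 (0.32, adjusted p = 0.0429) and *Fads2* without treated NTC replicate 3 or treated DKO replicate 2 or 3 (0.12, adjusted p of 0.0348 to 0.0499). Between the treated genotypes treated DKO replicate 2 held back the calls of *Pmvk* (-0.14, adjusted p = 0.037 without it), *Srebf2* (-0.17, adjusted p = 0.0313), *Scd1* (-0.19, adjusted p = 0.0347) and *Acsl3* (0.18, adjusted p = 0.0343). *Scd1* passed as well without untreated NTC replicate 1 (adjusted p = 0.0242), *Ebp* without treated NTC replicate 2 (0.17, adjusted p = 0.047), and *Hmgcs1* (-0.18, adjusted p = 0.0462) and *Fads2* (0.14, adjusted p = 0.0288) without treated DKO replicate 3.

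Other settings moved calls too. For IFNγ in NTC cells the call of *Nsdhl* ended when low genes were not filtered, in a fit of only the compared libraries, under both scalings and with the GC and length trend removed (adjusted p of 0.0591 to 0.192). *Cyp51* was lost with that trend removed together with the replicate block (0.0614), and *Fads2* passed with the trend removed (0.17, adjusted p = 0.0256). For DKO against NTC cells without IFNγ, *Acly* was lost with no filter (0.0527) and with the replicate block (0.0608), *Pmvk* (0.0852) and *Scd1* (0.111) with scaling to the same total, and *Scd1* also with the trend removed and the block (0.0652). *Acaca* (0.17, adjusted p = 0.0474), *Acacb* (0.30, adjusted p = 0.0303) and *Fads2* (0.17, adjusted p = 0.0149) passed with scaling to the same total. *Acacb* (0.0478) and *Fads2* (0.0445) did so by median ratio as well, and *Fads2* also in a fit of only the compared libraries (0.0333) and with the trend removed (0.0174).

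With IFNγ, scaling to the same total ended the calls of *Fdft1* (-0.13, adjusted p = 0.071), *Lss* (-0.11, adjusted p = 0.192), *Nsdhl* (-0.14, adjusted p = 0.144) and *Acss2* (-0.12, adjusted p = 0.168) and brought *Cyp51* to -0.16, which still passed. It added *Ebp* (0.21, adjusted p = 0.0105), *Stard4* (0.23, adjusted p = 0.0308), *Fads2* (0.19, adjusted p = 0.00757) and *Acsl3* (0.21, adjusted p = 0.00948). *Acss2* was lost in a fit of only the compared libraries as well (0.0706). Removal of the GC and length trend ended the calls of *Nsdhl* (-0.15, adjusted p = 0.111) and *Dhcr7* (0.14, adjusted p = 0.0806). It added *Pmvk* (-0.18, adjusted p = 0.0118), *Ebp* (0.15, adjusted p = 0.0377), *Stard4* (0.25, adjusted p = 0.0252) and *Acsl3* (0.24, adjusted p = 0.000558).

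The 2 branches could be set against each other within each library, where no scaling between libraries enters. The median of the 12 fatty acid members minus that of the 15 mevalonate and sterol members, each on the log2 scale against the mean of the untreated NTC libraries, was -0.02 to 0.02 in untreated NTC, -0.17 to -0.06 in treated NTC, 0.21 to 0.29 in untreated DKO and 0.17 to 0.27 in treated DKO libraries. All 6 DKO libraries lay above all 6 NTC libraries, and the treated NTC libraries lay below the untreated ones. In summed TPM the mevalonate and sterol members amounted to 924.1 to 992.3 in untreated NTC, 1097 to 1144 in treated NTC, 836.3 to 848.2 in untreated DKO and 910.5 to 942.8 in treated DKO libraries. The fatty acid members summed to 1072 to 1169, 1144 to 1183, 1247 to 1291 and 1299 to 1390 TPM in the same order, sums in which *Fdps* and *Scd2* weigh most.

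**Figure D5:**
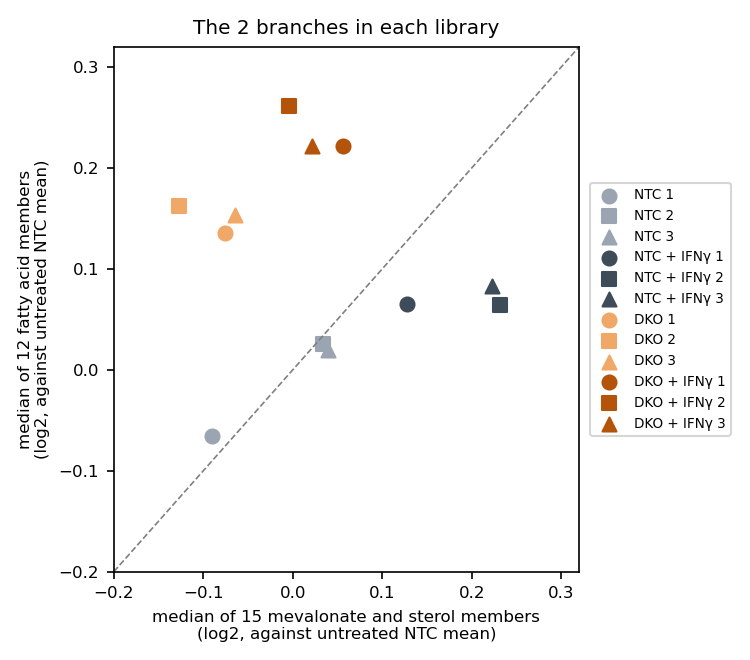
Median log2 level of the 15 mevalonate and sterol members (horizontal axis) and of the 12 fatty acid members (vertical axis) in each library, each relative to the untreated NTC mean, with equal values on the dashed line. The 6 DKO libraries lie above the line, the 3 treated NTC libraries below it.

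Other genes of the same pathways, taken from lists of names, were counted in the same fits. Of all tested genes 12.1% were called for IFNγ in NTC cells. Between the genotypes 36.4% were called without IFNγ and 43.3% with it. Of 6 further mevalonate and sterol genes 1 rose with IFNγ in NTC cells, *Sc4mol* (0.20, adjusted p = 0.0488), the sterol C4-methyl oxidase that works with *Nsdhl*. In DKO cells 1 was higher and 2 lower without IFNγ (50% called), and 1 was higher and 3 lower with it (66.7%). The median log2 difference of this list was -0.05 without IFNγ and -0.19 with it. *Sc4mol* was lower by -0.43 (adjusted p = 0.000131) and -0.47 (adjusted p = 5.36e-05) and *Sc5d*, the lathosterol desaturase, by -0.27 (adjusted p = 0.0278) and -0.38 (adjusted p = 0.0032). *Acat2*, a cytosolic acetoacetyl-CoA thiolase at the entry of the pathway, was higher by 0.34 (adjusted p = 0.000428) and 0.28 (adjusted p = 0.00162).

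Of 9 further genes of SREBP processing and sterol-regulated degradation, 1 was higher and 4 lower in DKO cells without IFNγ, and 1 was higher and 3 lower with it. These were 55.6% and 44.4% of the list, against 36.4% and 43.3% of all tested genes. *Rnf145*, an endoplasmic reticulum ubiquitin ligase, was higher by 0.35 (adjusted p = 0.00129) and 0.28 (adjusted p = 0.00446). *Faf2*, a factor of protein extraction from that membrane, was lower without IFNγ by -0.31 (adjusted p = 0.00111). In NTC cells 1 of the 9, *Erlin2*, rose with IFNγ (0.19, adjusted p = 0.023), which is 11.1% against 12.1% of all tested genes.

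Of 17 listed genes of sterol uptake, transport, efflux and oxysterols 11 could be tested. In DKO cells 3 were higher and 2 lower in each genotype comparison, 45.5% of the 11 against 36.4% and 43.3% of all tested genes. Among the higher were the efflux pump *Abca1* (0.36, adjusted p = 0.00969 without IFNγ, and 0.36, adjusted p = 0.00887 with it) and the lysosomal lipase *Lipa* (0.30, adjusted p = 0.00123, and 0.25, adjusted p = 0.00384). The lysosomal cholesterol carrier *Npc2* was lower (-0.30, adjusted p = 8.14e-05, and -0.24, adjusted p = 0.000376). IFNγ in NTC cells raised 1, the cholesterol acyltransferase *Soat1* (0.14, adjusted p = 0.049), and lowered 1, the liver X receptor *Nr1h2* (-0.43, adjusted p = 0.0145). Together these were 18.2% of the 11, against 12.1% of all tested genes.

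Of 16 further fatty acid and glycerolipid genes tested, 5 rose and 1 fell with IFNγ in NTC cells (37.5% called, against 12.1% of all tested genes). Of the 6 further mevalonate and sterol genes 16.7% were called, so by calls the members' division between branches under IFNγ was not shared by these lists. Their median log2 differences were 0.08 for the 16 and 0.17 for the 6. The largest differences were those of *Acsl5*, an acyl-CoA synthetase (0.49, adjusted p = 0.00209), *Ptplb*, a very-long-chain acyl-CoA dehydratase (0.30, adjusted p = 0.0117), and *Mid1ip1*, an activator of acetyl-CoA carboxylase (-0.26, adjusted p = 0.0489). In DKO cells 3 were higher and 5 lower without IFNγ (50%, against 36.4% of all tested genes) and 3 higher and 2 lower with it (31.2%, against 43.3%). The median log2 difference of the 16 was 0.01 without IFNγ and -0.03 with it, against -0.01 for all tested genes in both comparisons. The upward shift of the 12 fatty acid members was thus not shared by this list. *Acsl5* was higher by 0.43 (adjusted p = 0.000562) and *Mid1ip1* lower by -0.42 (adjusted p = 0.00124) without IFNγ, and *Hsd17b12*, a ketoacyl-CoA reductase of elongation, was lower by -0.45 with it (adjusted p = 3.71e-06). In DKO cells IFNγ called 0 genes in each of these 4 lists, against 0.78% of all tested genes. The test of the difference in response called 0 as well, against 0.0343%.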

How the data were processed

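RNA was measured in 12 libraries of B16-F10 Cas9 cells, 3 in each of 4 groups. The authors mapped reads with RSEM 1.2.4, calling Bowtie, to a merged Ensembl and UCSC transcriptome and the remaining reads to the mm10 genome with TopHat 20.8b, and deposited TPM per gene. TPM keeps no depth, so the depth of each library is unknown here and how the values were scaled between libraries is not given in the sources used here. No read counts were used.

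From the deposited TPM, genes reaching 1 TPM in 3 or more libraries entered a fit of log2(TPM + 1) by limma 3.58.1 (R 4.3.3, trend) in 1 model of all 12 libraries with 1 mean per group. The 5 comparisons were adjusted by Benjamini-Hochberg over all 11663 tested genes, with a threshold of 0.05. A fold change on this scale understates the change of low genes. The procedure was run on simulated data with independent noise in each library and no trend on GC content, length or scaling. That run cannot show how the procedure handles such trends in the deposited values. Coordinates and overlaps came from GENCODE vM21, which held 34 of 34 members, and promoter windows from RefSeq (GRCm38.p6).

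Members and gene lists were chosen with earlier results of these data known. A member got its value in every library where it passed at least 1 comparison and was among the 3 largest differences of its branch and direction, and the 5 regulators always did. Other members that passed are named with their range and differences, and of other pathway genes at most 3 per list and comparison were named, except that some are not reported here. The 20 alternatives comprised another pseudocount (0.1 TPM), no filter, fits of the compared libraries only, scaling to the same total or by median ratio, removal of the trend on GC content and length (11563 genes with both), a replicate block, and leaving out each of the 12 libraries. The authors' comparisons were not used.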

Additional observations from a re-analysis of the deposited data

How the results depend on the processing

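No member that passed a test changed sign under any of the 20 alternatives, and 2 of 7 calls for IFNγ in NTC cells, 8 of 17 for DKO against NTC cells without IFNγ and 13 of 19 with it held under all of them. The call for *Srebf2*, the only member lower with IFNγ in NTC cells, was lost (0 members lower) with no filter on low values, with the replicate block, and after removal of the trend on GC content and length, alone or with the block. In those last 2 settings the members' median was 0.0862 and 1 fatty acid member, *Fads2*, rose. With every library scaled to the same total, the members' median was 0.0779 without IFNγ and 0.0817 with it, and 0 fatty acid members were lower in either comparison. With IFNγ that scaling left 5 members lower, with 2 mevalonate and sterol members higher and 4 lower. The single lower fatty acid call became 0 without IFNγ under the GC and length removal with the replicate block, and 0 with IFNγ in a fit of only the compared libraries. Under the replicate block alone 6 members rose with IFNγ in NTC cells, and in untreated DKO cells 8 were higher and 8 lower. The labels do not say whether same-numbered libraries shared anything beyond the number. The correlations of their deviations from the group means were -0.179 to 0.182, and not every library correlated best with its own number. With 3 libraries in each group mean, these values cannot settle whether replicates were paired.

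Leaving out 1 library at a time gave 2 to 7 members higher and 0 to 1 lower for IFNγ in NTC cells (mevalonate and sterol members higher, 2 to 7) and 0 to 1 higher in DKO cells. For DKO against NTC cells without IFNγ it gave 4 to 10 members higher and 5 to 9 lower, a median of -0.0274 to 0.0596, 1 to 2 mevalonate and sterol members higher and 3 to 6 lower, and 3 to 7 fatty acid members higher and 0 to 1 lower. With IFNγ it gave 0 to 2 mevalonate and sterol members higher and 0 to 2 fatty acid members lower. Over all tested genes the same omissions gave 317 to 2023 calls for IFNγ in NTC cells, in place of 1411. Between the genotypes they gave 3430 to 4475 calls without IFNγ, in place of 4247, and 4238 to 5113 with it, in place of 5053. The cause of these changes was not tested beyond the smaller number of libraries. TPM keeps no read depth, so counting error could not be set beside the spread of the 3 libraries of a group.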
